A study of Mus musculus with 4 samples.

Results

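Lymphatic endothelial cells line the vessels that drain fluid from the skin. Here 7 genes linked to these cells were followed on 4 arrays of embryonic mouse dermis. The genes were Lyve1, Prox1, Flt4, Pdpn, Reln, Vegfc and Mmrn1. They were chosen by name, and all of their probe sets in the platform annotation were taken, which gave 15 probe sets for 7 of the 18193 genes that the arrays name. A probe set is a group of short probes that reports one transcript, and its value is a signal intensity on a linear scale. Where 1 probe set stands for a gene, it is the one with the highest 4-array mean.

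All embryos were at E15.5, and the arrays held RNA of the dorsal dermis, freed of epidermis with the protease dispase. The 2 arrays labelled mutant came from embryos with the KRT14-Cre transgene and the Ctnnb1(Ex3)fl/+ allele, and the 2 labelled control from littermates whose own alleles are not stated. The keratin 14 promoter drives Cre in surface epithelium, where removal of the floxed exon leaves a beta-catenin that escapes degradation. The dermis, and the vessels within it, is therefore the neighbour of the altered tissue and is not itself the target of Cre. The study asked how the dermis differs beneath such an epithelium.

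In the embryo, lymphatic vessels arise largely from veins. The transcription factors Sox18 and Nr2f2 switch on Prox1 in venous endothelial cells, and Prox1 sets and keeps the lymphatic fate. These cells then carry the receptor Flt4 (VEGFR-3) and follow its ligand Vegfc, which mesenchyme and other cells secrete, as they sprout into tissues such as skin. Lyve1 is a hyaluronan receptor, Pdpn (podoplanin) is a membrane glycoprotein that binds the platelet receptor Clec1b, and Reln (reelin) and Mmrn1 (multimerin 1) are secreted glycoproteins made by lymphatic endothelium. Several of them have other sources in skin, since Lyve1 marks a class of tissue macrophages and Pdpn is also made by keratinocytes and fibroblasts.

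The arrays had been scaled to the same trimmed mean of 150.0, and their median signals lay between 28.6 and 32.3. They shared 1 hybridization and 1 scanning day, and each was washed in a fluidics module of its own. Control 2 and mutant 1 were on modules 1 and 2 and were scanned before control 1 and mutant 2, on modules 3 and 4, so that the array pairs described below and the order of scanning cannot be told apart. The instrument records call the material mouse epidermis, whereas the labels say dermis. The dermal collagen Col3a1 gave 6793 to 8886 and Col1a2 gave 5771 to 7388, and the epidermal genes Krt10 and Dsp gave 158 to 1323 and 114 to 550.5. The array labelled mutant 1 carried male signals, with Eif2s3y at 524 against at most 1.81 elsewhere, and the other 3 carried female signals. The labels also disagree with the authors' deposited table of changed genes in how the arrays group. The authors' deposited table gives 97 probe sets as higher in mutant, and on 96 of these control 1 and mutant 2 lay above control 2 and mutant 1. The authors' deposited table gives 56 as lower, and on all 56 the same arrays lay below. None of the 15 lymphatic probe sets is in the authors' deposited table. The genes are therefore described below by label and by these array pairs, and a direction by label is that of the labels alone.

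The 7 genes did not behave alike over the arrays. Prox1, Flt4, Reln, Vegfc and Mmrn1 were each highest on control 2, next on mutant 1, and lower on both control 1 and mutant 2. Lyve1 alone was lower on both arrays labelled mutant than on both labelled control, and Pdpn alone was higher on both. The plot of every probe set on every array shows the 3 patterns.

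**Figure D1:**
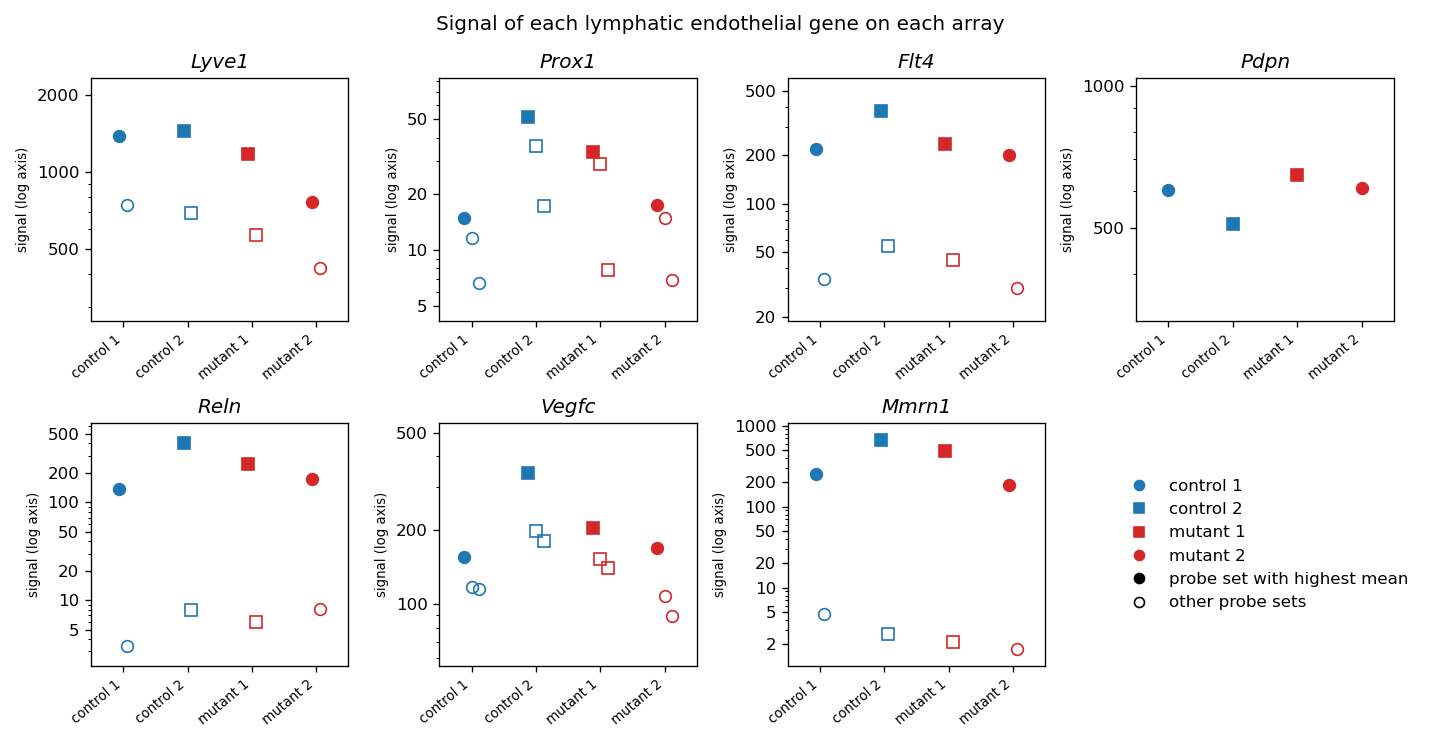
Signal of every probe set of the 7 lymphatic endothelial genes (vertical log axis, signal units) on the 4 arrays (horizontal axis, by label), with controls in blue, mutants in red, squares for control 2 and mutant 1 and circles for control 1 and mutant 2. Squares lie above circles in all filled points of Prox1, Flt4, Reln, Vegfc and Mmrn1, as for Mmrn1 at 668 and 485 against 250.3 and 185, whereas Lyve1 steps down from the blue to the red points and Pdpn stays between 509 and 649.

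Prox1, the transcription factor that defines the lymphatic lineage, gave the weakest signals. Its brightest probe set read 14.9 and 51.8 on controls 1 and 2 and 33.6 and 17.4 on mutants 1 and 2. Control 2 and mutant 1 thus read higher than the other arrays, whose signals lay under the array medians. The next probe set gave 11.5, 36.0, 28.9 and 14.8 in the same array order, and the third gave 6.70, 17.1, 7.81 and 6.89. All 3 probe sets placed the arrays in the same pairs, and folds are not given at such dim signals. In mean log2 signal all 3 fell under the median of all probe sets, 5.515, so that Prox1 was not part of the test across the table.

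Flt4, the receptor through which lymphatic endothelium answers Vegfc, read 220 and 375 on controls 1 and 2 and 235 and 199.8 on mutants 1 and 2. Control 2 stood clear of the others, while mutant 1 was only 1.07 times control 1. The dimmer probe set of Flt4 gave 34.4, 54.8, 45.0 and 30.2, again with control 2 highest and mutant 1 next, and with a wider gap of 1.31-fold between the pairs.

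Vegfc, the ligand of Flt4, was read by 3 probe sets, all of which were tested. The brightest gave 156 and 341 on controls 1 and 2 and 203.5 and 169 on mutants 1 and 2. The second gave 118, 199, 152 and 108, and the last gave 115, 181, 140 and 89.4. The 3 probe sets agree on the order, with gaps of 1.21-fold, 1.29-fold and 1.22-fold between the pairs. Ligand and receptor were thus both highest on control 2, by 2.19-fold and 1.71-fold over control 1 in their brightest probe sets. The other probe sets gave 1.69-fold and 1.58-fold for Vegfc and 1.59-fold for Flt4.

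Reln, the secreted glycoprotein reelin, read 137 and 401 on controls 1 and 2 and 247 and 175 on mutants 1 and 2. Its range was 2.92-fold, and the gap between the pairs was 1.41-fold. A second probe set lay between 3.43 and 8.19, under the filter for dim probe sets, and did not show this order. Mmrn1, a glycoprotein of the extracellular matrix and of platelets, read 250.3, 668, 485 and 185, the widest range of the tested lymphatic genes at 3.60-fold. The lower of control 2 and mutant 1 was 1.94 times the higher of control 1 and mutant 2. The second probe set of Mmrn1 lay between 1.74 and 4.77 and did not show the order either.

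In all, 5 of the 7 genes, and 10 of the 15 probe sets, had control 1 and mutant 2 both below control 2 and mutant 1. The background for this order was 21.5% of all genes, 23.9% of genes bright enough to test and 20.4% of all probe sets. Prox1 is among the 5 genes and was too dim to test, so the count of genes compares with the share of all genes. The opposite order, which 0 of the 7 showed, was that of 27.1% of genes and 23.5% of probe sets. In each of these 5 genes control 2 was the highest array and mutant 1 the next, an order that 11.8% of all genes had. The array pairs were known from earlier results of these data and the probe sets of a gene share its RNA, so these counts are a description with no test. In a bulk tissue, fewer lymphatic cells and less of each RNA per cell cannot be told apart.

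The sequences before the start sites of these 5 genes are shown because the genes took the same array order. Each is the 250 bases upstream of the gene's outermost annotated start, read 5′ to 3′ on the gene's strand, from RefSeq on GRCm38.p6. The windows are chr1:190170828-190171077 on the minus strand for Prox1, chr11:49609429-49609678 on the plus strand for Flt4, chr8:54077282-54077531 on the plus strand for Vegfc, chr5:22344706-22344955 on the minus strand for Reln and chr6:60944067-60944316 on the plus strand for Mmrn1. Capitals mark any match, on either strand, to the motifs searched.
Prox1: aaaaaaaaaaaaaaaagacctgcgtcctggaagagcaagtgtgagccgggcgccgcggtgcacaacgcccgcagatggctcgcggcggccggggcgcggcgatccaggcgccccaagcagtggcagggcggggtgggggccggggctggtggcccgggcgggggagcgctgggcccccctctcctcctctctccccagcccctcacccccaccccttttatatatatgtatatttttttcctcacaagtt
Flt4: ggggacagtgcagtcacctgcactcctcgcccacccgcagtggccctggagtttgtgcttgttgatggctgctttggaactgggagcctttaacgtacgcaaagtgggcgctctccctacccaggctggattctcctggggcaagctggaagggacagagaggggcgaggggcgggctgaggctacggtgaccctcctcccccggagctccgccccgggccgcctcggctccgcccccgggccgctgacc
Vegfc: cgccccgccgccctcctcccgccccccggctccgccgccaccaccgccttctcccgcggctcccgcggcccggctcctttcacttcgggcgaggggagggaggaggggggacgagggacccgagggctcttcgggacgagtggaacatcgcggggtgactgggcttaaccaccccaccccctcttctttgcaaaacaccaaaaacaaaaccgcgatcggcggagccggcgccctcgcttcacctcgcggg
Reln: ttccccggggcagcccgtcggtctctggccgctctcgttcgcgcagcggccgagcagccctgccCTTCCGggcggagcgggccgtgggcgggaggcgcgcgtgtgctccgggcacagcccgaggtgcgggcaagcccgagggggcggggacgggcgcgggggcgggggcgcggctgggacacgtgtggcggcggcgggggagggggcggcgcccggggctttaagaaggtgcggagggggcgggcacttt
Mmrn1: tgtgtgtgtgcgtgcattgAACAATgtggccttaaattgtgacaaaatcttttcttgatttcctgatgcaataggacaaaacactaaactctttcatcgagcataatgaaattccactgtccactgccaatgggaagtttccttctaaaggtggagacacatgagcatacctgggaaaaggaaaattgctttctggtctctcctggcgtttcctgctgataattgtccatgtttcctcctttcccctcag

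A window was found for 6 of the 7 genes. The 5 motifs of 6 letters were AACAAT for SOX factors, AGATAA for GATA factors, CGGAAG for ETS factors, AGGTCA for nuclear receptors such as Nr2f2 and TAAACA for forkhead factors. These letters occur in 9.42%, 9.99%, 13.6%, 14% and 12% of the 32851 promoter windows of the same length. No match overlapped another. Of the 5 windows printed, that of Mmrn1 holds 1 SOX match, starting 231 bases before the start site, and that of Reln holds 1 ETS match on the reverse strand, 186 bases before it. The other 3 windows hold none of these letters, which says nothing of sites elsewhere. A second annotated start of Prox1, not printed, has a forkhead match 166 bases before it. In base composition Reln (80.0% G and C), Vegfc (71.6%), Flt4 (68.4%) and Prox1 (64.8%) lie above the median window, 52.4%, and Mmrn1 (42.4%) lies below it. No motif of these 5 was common to the printed windows.

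Lyve1, the hyaluronan receptor, read 1382 and 1447 on controls 1 and 2 and 1174 and 763 on mutants 1 and 2. Its second probe set gave 745, 694, 568 and 423. In both probe sets the arrays labelled mutant lay below both labelled control, and the step from mutant 1 to mutant 2 was larger than that between the controls. Of the 7 genes 1 had this order, where the background was 12.5% of all genes and 11% of those tested. By label the log2 difference of mutant minus control was -0.57 ± 0.22 (SE, n = 2 per group), with a 95% confidence interval from -1.15 to 0.01 and a limma adjusted p of 0.9999. The second probe set gave -0.54 ± 0.18, with an interval from -0.99 to -0.08 and the same adjusted p, so the difference did not pass the threshold across the table. Without 1 array the difference of Lyve1 ran from -0.88, without mutant 1, to -0.27, without mutant 2.

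Pdpn, a mucin-like membrane protein, read 601 and 509 on controls 1 and 2 and 649 and 609 on mutants 1 and 2 in its single probe set. Both arrays labelled mutant lay above both labelled control, which 11.2% of all genes did. The highest array was only 1.27 times the lowest, the narrowest range of the 7. By label its mutant arrays differed from the controls by 0.18 ± 0.14 on the log2 scale (SE, 2 arrays each), with an interval from -0.18 to 0.54 and a limma adjusted p of 0.9999. Keratinocytes also make Pdpn, and the summed signal of 12 keratinocyte markers was 1509, 1265, 5360 and 1693 on control 1, control 2, mutant 1 and mutant 2. This sum has the same order of arrays as Pdpn. Of the 12 markers 6 had both mutant arrays above both controls, and 5 had control 1 and mutant 2 below the others, against 11.2% and 21.5% of all genes. Fibroblasts also make Pdpn, and their 9 markers summed to 40203, 44280, 50963 and 33879, a different order. The part of either cell type in the difference of Pdpn was not tested.

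By label, none of the lymphatic genes passed the test against the spread between arrays of one label. Of all 22519 probe sets tested, 0 passed in limma at an adjusted p of 0.05, which is 0%, and 208, or 0.924%, had an unadjusted p under 0.05. Of the 7 genes 6 were tested and 0 passed. The differences of Flt4, Mmrn1 and Vegfc were -0.38 ± 0.28, -0.43 ± 0.62 and -0.30 ± 0.37 (log2, SE, n = 2 per group), and that of Reln was -0.18 ± 0.50. Their adjusted p was 0.9999 in each case (limma), and the intervals are wide, as for Mmrn1 from -2.02 to 1.17. Prox1, not tested, had a difference of -0.17 ± 0.45. The difference was negative for 6 of the 7 genes with a median of -0.30, against a median of -0.003 over all genes, of which 50.7% were negative. That median turned to 0.23 without control 2 and to 0.06 without mutant 2, and the sign turned without control 2 for Prox1, Reln, Vegfc and Mmrn1 and without mutant 2 for Prox1, Reln and Mmrn1.

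**Figure D2:**
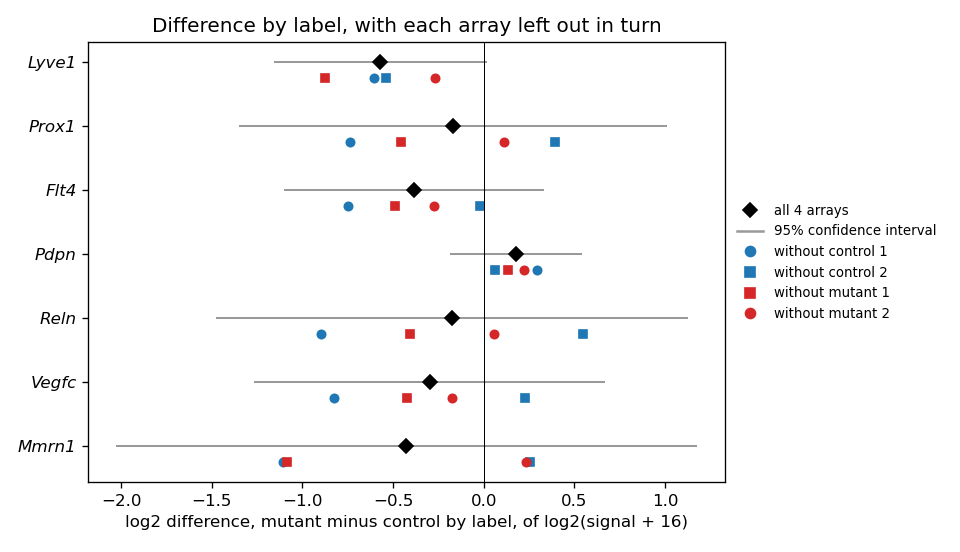
Log2 difference of mutant minus control by label for each gene (horizontal axis, on log2(signal + 16)), with a black diamond for all 4 arrays, a grey line for the 95% confidence interval and coloured points for the difference with 1 array left out. Every interval includes 0, and only Lyve1, Flt4 and Pdpn keep 1 sign throughout, with Lyve1 between -0.88 and -0.27.

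The size of the disagreement between arrays of one label is seen in Mmrn1, where control 2 was 2.67 times control 1 and mutant 1 was 2.62 times mutant 2. In Reln the arrays labelled control differed by 2.92-fold. In Lyve1 the controls differed by only 1.05-fold and the mutants by 1.54-fold.

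Other genes of lymphatic development were counted from lists chosen for their roles, of which 26 of 28 genes had a probe set that names them alone. None of the 25 that were tested passed by label in either direction (limma), and their differences had a median of -0.09. Only 3 of the 26 had control 1 and mutant 2 below the other arrays, as Prox1 and Mmrn1 did, against the background of 21.5%, and 12 had the opposite order, where the background was 27.1%. The genes of these lists were therefore not all raised on control 2 and mutant 1. Some of the 12 were near ties, as for Ramp2 at 916 on mutant 2 against 911 on control 2.

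Among the ligands and the proteins that process them, 4 of 5 had the opposite order in their brightest probe sets, against 27.1% of all genes. Vegfd, the other ligand of Flt4, gave 506 and 402 on controls 1 and 2 and 284 and 417 on mutants 1 and 2, and its 2 other probe sets had both mutant arrays lowest instead. The peptide adrenomedullin (Adm) gave 311, 64.4, 70.0 and 231, and the angiopoietin Angpt2 gave 152, 91.8, 66.3 and 102. Ccbe1, which enables cleavage of Vegfc and is named here after its values were seen, was the exception. It gave 39.95, 161, 127 and 49.2, and 3 of its 4 probe sets placed the arrays as Vegfc did.

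Of the 3 brightest receptors, Ramp2, the partner of the adrenomedullin receptor, gave 1062, 911, 889 and 916 on control 1, control 2, mutant 1 and mutant 2. The VEGF co-receptor Nrp2 gave 691, 631, 499.6 and 699, and the receptor Calcrl gave 257, 276, 246 and 306. In their brightest probe sets 0 of the 6 receptors had control 1 and mutant 2 below the other arrays, and 3 of 6 had both mutant arrays below both controls, where 12.5% of all genes did. Probe sets disagreed for the integrin Itga9, a receptor named after its values were seen. Its brightest gave 190, 158, 147 and 107, with both mutant arrays lowest, and its 2 others had control 2 highest and mutant 1 next, as Vegfc did. Of the transcription factors upstream of Prox1, Sox18 gave 549, 578.5, 560.5 and 413 and Nr2f2 gave 273, 263, 202 and 309. Sox18 had control 2 highest and mutant 1 next, as Prox1 did, with control 1 close behind. Gata2, a regulator of lymphatic valves, gave 320, 362.5, 295 and 275.

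Partners of Pdpn and Reln were also read. The platelet receptor Clec1b, which Pdpn engages, was dim at 13.5 to 23.8 and is named after its values were seen, and the signalling proteins downstream of it, Lcp2, Plcg2 and Syk, lay at 144 to 209, 91.4 to 97.0 and 55.1 to 79.4. For Reln, the receptor Vldlr gave 508.5 and 193 on controls 1 and 2 and 257 and 512.5 on mutants 1 and 2. All 6 probe sets of Vldlr had this order, the opposite of that of its ligand Reln. The reelin adaptor Dab1 gave 46.6, 33.3, 38.8 and 33.3 and the receptor Lrp8 gave 31.8, 38.1, 29.3 and 39.6. Of the valve and junction genes, Efnb2 lay at 462 to 594, Emilin1 at 443 to 554 and Gja4 at 145.5 to 199.

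Blood endothelium did not share the order of the lymphatic genes, by count. Of 17 blood endothelial markers 1 had control 1 and mutant 2 below the other arrays (21.5% of all genes) and 2 had them above (27.1%). Both mutant arrays lay below both controls in 9 of the 17, the order of Lyve1, which 12.5% of all genes had. Emcn, a sialomucin of capillaries and veins, gave 646, 677, 622 and 617 on control 1, control 2, mutant 1 and mutant 2, and the junction protein Esam gave 608, 711, 543 and 552. Over the list the values centred on each gene's mean had medians of 0.01, 0.18, -0.14 and -0.05 (log2) on these arrays, against -0.38, 0.65, 0.13 and -0.32 for the 7 lymphatic genes. Their difference by label had a median of -0.18, with 15 of 17 negative, against 50.7% of all genes, and 0 passing. No test of one list against the other was made.

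Macrophage markers took the opposite order. Of 12 markers 8 had control 1 and mutant 2 above control 2 and mutant 1, against 27.1% of all genes, as for the receptor Csf1r at 2457, 1160, 1239 and 2171 on control 1, control 2, mutant 1 and mutant 2. The mannose receptor Mrc1 gave 1841, 1267, 1472 and 1335 and did not separate the pairs. The summed signal of the list was 8117, 4514, 5107 and 6595. Lyve1, which such cells can carry, did not follow this order. Of the 12 markers 1 shared its order by label, where the background was 12.5% of all genes. It was Cd163, named after its values were seen, at 43.0 and 44.6 on controls 1 and 2 and 30.4 and 36.0 on mutants 1 and 2. The part of macrophages in the Lyve1 signal was not tested.

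**Figure D3:**
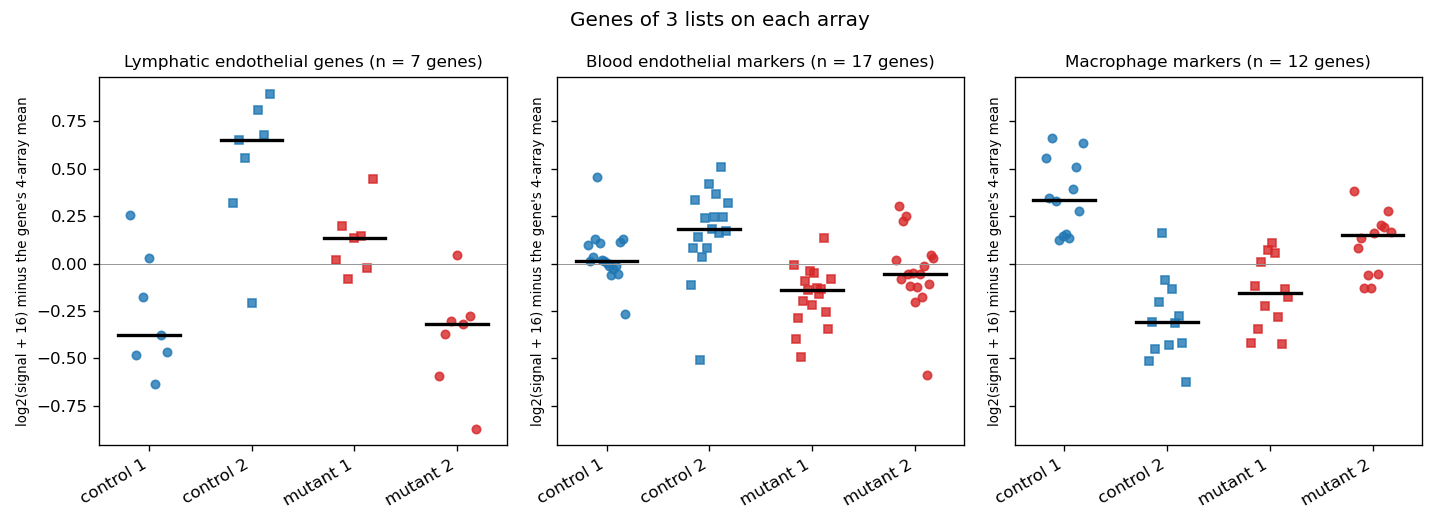
Values of log2(signal + 16) minus each gene's mean over the 4 arrays (vertical axis, log2 units) for the 7 lymphatic endothelial genes, 17 blood endothelial markers and 12 macrophage markers on each array (horizontal axis, by label), with 1 point per gene and a bar at the list's median. The lymphatic bars are high on control 2 (0.65) and low on control 1 (-0.38) and mutant 2 (-0.32), the blood endothelial bars stay within 0.18 of 0 and the macrophage bars run the other way.

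Markers of some other cell types moved with the array pairs as well, and those of others did not. Fibroblast markers had control 1 and mutant 2 below the other arrays in 6 of 9 genes, against 21.5% of all genes, with Col3a1 and Col1a2 among the 3 exceptions and a summed signal of 40203 and 44280 on controls 1 and 2 and 50963 and 33879 on mutants 1 and 2. Skeletal muscle markers had them below in 8 of 10, against the same 21.5%, and muscle is another tissue in which Prox1 is made. Their summed signal was 3169, 9360, 17284 and 8708, with Acta1 at 912 on control 1 and 3961 on mutant 1 and Mylpf at 519 and 3129, so that mutant 1 and not control 2 was highest. Schwann cell and nerve markers had control 1 and mutant 2 below in 3 of 5, against the same 21.5%. Among them were Ngfr at 291, 409, 359 and 276 and Fabp7 at 78.1, 267.5, 267 and 79.6. S100b, named after its values were seen, had the opposite order at 211, 22.7, 53.0 and 286, and Mbp had neither order. Fabp7 was the 1 gene of these lists in the authors' deposited table, at a fold of 0.184. Cartilage markers such as Col9a1 and Col2a1 stood out on mutant 2 alone, with a summed signal of 10128 against 239 to 303 on the other arrays. Platelet and megakaryocyte markers, which matter because platelets hold Mmrn1, summed to 1978, 1312, 1839 and 1277, with Pf4 at 1800, 1167, 1676 and 1093 and Itga2b between 84.7 and 103. Only these 2 of the 6 markers were bright enough to test, and Pf4 alone made up most of each sum. The order of this sum, mostly that of Pf4, is not the order of Mmrn1. The part of any of these cells in the lymphatic signals was not tested.

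Mmrn1, the widest in range of the 6 lymphatic genes tested, was set against the other 11412 tested genes by the root mean square difference of centred log2 values over the 4 arrays. The nearest was Bcl11b, a zinc finger transcription factor, at 0.05 log2, and close behind it lay Runx1, a Runt-domain transcription factor, at 0.105. Bcl11b gave 314 and 784 on controls 1 and 2 and 602 and 244 on mutants 1 and 2. Among the other lymphatic genes Reln was nearest to Mmrn1, at 0.33 and rank 168, followed by Vegfc at 0.40 and rank 276 and Flt4 at 0.45 and rank 399. Lyve1 stood at rank 822 and Pdpn at rank 7664. Many genes outside the lymphatic list were thus closer to Mmrn1 than its fellow lymphatic genes were, over only 4 arrays.

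**Figure D4:**
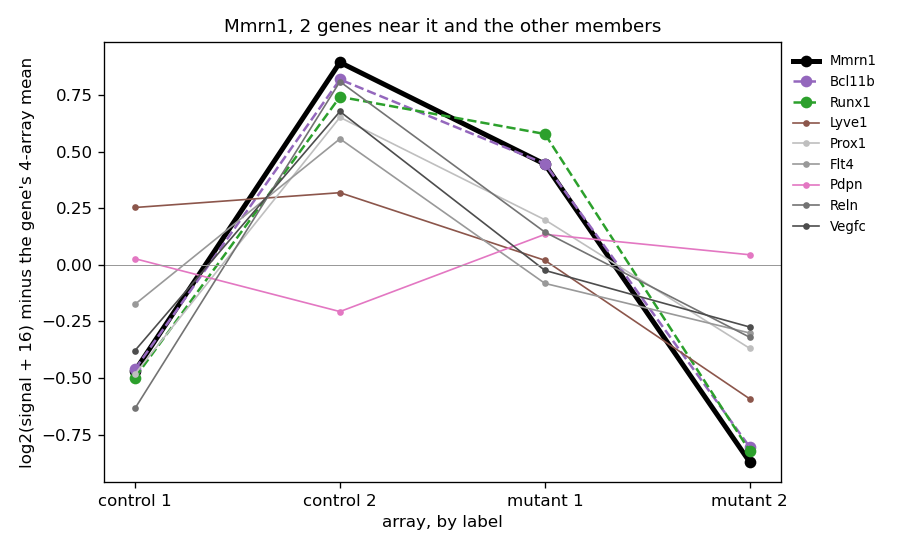
Values of log2(signal + 16) minus each gene's mean (vertical axis, log2 units) on the 4 arrays (horizontal axis, by label, with lines that join the values of 1 gene and imply no order) for Mmrn1 in black, 2 genes near it in dashed colour and the other 6 lymphatic genes in thin lines. Bcl11b follows Mmrn1 to within 0.05 log2 by root mean square, Prox1, Flt4, Reln and Vegfc peak on control 2 as Mmrn1 does, and Pdpn is lowest there.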

How the data were processed

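RNA of dorsal dermis from 4 embryos was read on Affymetrix Mouse Genome 430 2.0 arrays. Each probe set has 1 deposited signal intensity per array, linear and scaled by the authors to a common trimmed mean. Per the submitters' processing notes GCOS and MAS5 were used, with versions not given in the sources used here. A second deposited table gives the fold, a ratio of mutant to control levels, for 153 probe sets; per the file headers it rests on GCRMA values and a Welch test at p 0.01 with a fold of 2, without correction. An array has no read depth, so the number of arrays limits the precision.

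Of 45101 probe sets, 64 array controls were left out. By the platform annotation 34958 of the 45101, counted before the controls were left out, name 1 gene, 932 name several and 9211 are unnamed. Symbols of 34754 were looked up by gene number in RefSeq for GRCm38.p6, and 0 changed. Genes without a probe set that names them alone were not analysed here. Mutant and control were compared with limma 3.58.1 in R 4.3.3 (lmFit, eBayes with an intensity trend) on log2(signal + 16), a scale that understates the change of dim probe sets. Two-sided p-values were adjusted by Benjamini-Hochberg and called at 0.05, on the 22519 probe sets whose mean was at or above the median, 5.515. Probe sets below it have a difference and no p. The labels give 2 embryos per group, and p-values measure only the spread between these 2 arrays. Tables used pandas 2.3.3 and numpy 2.4.6 under Python 3.11.15, and figures matplotlib 3.10.9.

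The members, the lists of pathway genes and cell type markers, the array pairs and the motifs were chosen with earlier results of these data known. The text names all 7 genes, up to 3 genes of each pathway list and up to 2 of each marker list by mean signal, and, of the 3 genes nearest to the tested member with the widest range, 2, the other not being reported here. Ccbe1, Itga9, Clec1b, S100b, Mbp and Cd163 were named after their values were seen. The same sample numbers occur in both groups, and deviations of same-numbered arrays from their group means correlated at -0.616 over the tested probe sets, so the numbers do not pair the arrays. Alternatives were other pseudocounts, filters and scalings, no trend, a replicate block, all probe sets of a gene, the methods' t-test and each array left out.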

Additional observations from a re-analysis of the deposited data

How the results depend on the processing

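Over the alternatives that kept all 4 arrays, each of 70 member differences had the direction given above and 0 of the 55 with an adjusted p passed the threshold (limma). The filters, the fit without a trend and the blocks cannot change a difference when all 4 arrays are kept, only its error and p. Their share of the agreement in direction was therefore fixed in advance. With 1 array left out, 0 of 24 passed, since Prox1 was not tested there. With the sample number as a replicate block 0 probe sets passed, so the block changed no call. The difference of Lyve1 was -0.57, which such a block cannot change. A crossed pairing of control 1 with mutant 2, chosen after seeing the data, gave 108 probe sets past the threshold, none of them of a lymphatic gene's representative. The methods' t-test with its fold gave 3 and 0 after Benjamini-Hochberg adjustment. Leaving out 1 array gave 0 to 1, the 1 without mutant 2. A block by scan day or fluidics module could not be fitted, since the arrays shared 1 day and each had its own module. The count of 5 genes with control 1 and mutant 2 lowest was 3 when the dimmest probe set represented each gene. The genes that left the count were Reln and Mmrn1, whose dimmest probe sets lay at 3.43 to 8.19 and 1.74 to 4.77. Why these differ from the brighter probe sets was not tested.

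Without 1 array the differences ran from -0.88 to -0.27 for Lyve1, -0.74 to 0.40 for Prox1, -0.75 to -0.02 for Flt4, 0.06 to 0.30 for Pdpn, -0.90 to 0.55 for Reln, -0.83 to 0.23 for Vegfc and -1.11 to 0.26 for Mmrn1. Those that turned were 0.40 (Prox1), 0.55 (Reln), 0.23 (Vegfc) and 0.26 (Mmrn1) without control 2 and 0.11 (Prox1), 0.06 (Reln) and 0.23 (Mmrn1) without mutant 2. The median of a list ran from -0.75 to 0.23 for the 7 genes, -0.64 to -0.11 for ligands, -0.27 to -0.039 for receptors, -0.26 to -0.10 for transcription factors, -0.145 to -0.008 for Clec1b and its pathway, -0.16 to 0.12 for valve genes and -0.27 to 0.13 for reelin signalling. It ran from -0.21 to -0.03 for all pathway genes, -0.32 to -0.13 for blood endothelium, -0.38 to 0.28 for macrophages, 0.054 to 1.46 for keratinocytes, -0.26 to 0.29 for fibroblasts, 0.30 to 2.08 for muscle, 0.092 to 4.56 for cartilage, -0.069 to 0.26 for platelets and -0.36 to 0.27 for Schwann cells. Dim signals limit Prox1.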
